A study of Mus musculus with 6 samples.

Results

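Phox2a, Gata2, Gata3, Insm1, Elavl4, Ret, Th and Dbh are 8 genes of the autonomic neurons that arise from the neural crest. They were chosen by name out of 21776 protein-coding genes. Every CHD7, H3K27ac and input peak within 1 kb of either end of such a gene or in its body was collected. So was every peak outside all protein-coding genes with such a gene as the nearest within 100 kb. CHD7 is a chromatin remodelling ATPase, and H3K27ac is the acetylation of lysine 27 of histone H3, a mark of active promoters and enhancers. Both were mapped by chromatin immunoprecipitation with sequencing in mouse embryos at E10.5. Wnt1-Cre2 males had been mated with mTmG females, so that cells of the Wnt1-Cre2 lineage carried green fluorescent protein, and GFP+ cells were sorted from pharyngeal arches 3 to 6. All libraries, input included, came from such cells, with 2 libraries each for CHD7, H3K27ac and input chromatin and no other genotype or treatment. Whether the paired libraries stem from different litters or sorting runs is not stated in the labels. Wnt1-Cre2 marks the crest lineage as a whole, so autonomic precursors are part of a mixed sort. In such a bulk sample, fewer cells with a mark and less of the mark per cell cannot be told apart.

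Sympathetic neurons and the chromaffin cells of the adrenal gland form from migrating crest cells that gather near the dorsal aorta, while vagal crest cells also settle in the gut as enteric neurons. In the mouse, a network of transcription factors that includes Hand2, Phox2a, Gata2, Gata3 and Insm1 switches on neuronal genes and the enzymes of noradrenaline synthesis. Ret is the receptor tyrosine kinase through which ligands of the GDNF family act on enteric and sympathetic precursors. Th, tyrosine hydroxylase, makes L-DOPA from tyrosine in the rate-limiting step, and Dbh, dopamine beta-hydroxylase, makes noradrenaline from dopamine.

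The stretches around the start sites are shown for 5 of the genes, whose starts differ in CG content and in the marks near them. Whether the sequence bears on the marks was not tested. The windows run from 250 bases before to 50 bases after the start and are read 5′ to 3′ along the gene. RefSeq, build GRCm38.p6, held such windows for 6 of the 8 genes, all but Insm1 and Ret. Capitals mark CG dinucleotides, which are dense at the promoters that CHD7 and H3K27ac mostly occupy. The window of the upper Elavl4 start, chr4:110351862-110352161 on the minus strand, lay under both marks. That of Gata3, chr2:9878551-9878850 on the minus strand, had CHD7 just upstream. Those of Phox2a (chr7:101818063-101818362, plus strand), Th (chr7:142899946-142900245, minus strand) and Dbh (chr2:27165257-27165556, plus strand) had neither mark within 1 kb of the start.
Elavl4: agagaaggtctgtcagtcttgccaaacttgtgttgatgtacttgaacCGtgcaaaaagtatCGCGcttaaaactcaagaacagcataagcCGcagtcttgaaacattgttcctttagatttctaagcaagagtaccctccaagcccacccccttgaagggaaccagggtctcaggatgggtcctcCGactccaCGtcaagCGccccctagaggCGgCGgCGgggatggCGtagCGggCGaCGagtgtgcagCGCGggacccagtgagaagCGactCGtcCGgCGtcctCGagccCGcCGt
Gata3: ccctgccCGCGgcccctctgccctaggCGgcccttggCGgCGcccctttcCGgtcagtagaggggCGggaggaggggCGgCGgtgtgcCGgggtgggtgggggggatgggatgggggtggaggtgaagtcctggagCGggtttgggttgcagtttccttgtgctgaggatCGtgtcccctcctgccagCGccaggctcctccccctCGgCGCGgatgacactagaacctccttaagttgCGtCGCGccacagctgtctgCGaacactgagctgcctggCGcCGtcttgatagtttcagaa
Phox2a: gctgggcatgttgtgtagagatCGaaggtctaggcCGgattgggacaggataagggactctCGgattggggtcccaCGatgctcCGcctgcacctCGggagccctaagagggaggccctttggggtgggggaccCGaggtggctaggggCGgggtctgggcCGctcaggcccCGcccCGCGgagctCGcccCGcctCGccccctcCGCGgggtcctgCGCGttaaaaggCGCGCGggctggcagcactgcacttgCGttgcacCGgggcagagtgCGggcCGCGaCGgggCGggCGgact
Th: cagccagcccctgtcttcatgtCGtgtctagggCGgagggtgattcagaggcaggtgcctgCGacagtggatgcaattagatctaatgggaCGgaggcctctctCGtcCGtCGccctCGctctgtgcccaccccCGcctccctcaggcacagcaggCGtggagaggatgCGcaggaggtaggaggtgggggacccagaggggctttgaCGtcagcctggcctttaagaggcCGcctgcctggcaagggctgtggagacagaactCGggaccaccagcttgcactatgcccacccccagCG
Dbh: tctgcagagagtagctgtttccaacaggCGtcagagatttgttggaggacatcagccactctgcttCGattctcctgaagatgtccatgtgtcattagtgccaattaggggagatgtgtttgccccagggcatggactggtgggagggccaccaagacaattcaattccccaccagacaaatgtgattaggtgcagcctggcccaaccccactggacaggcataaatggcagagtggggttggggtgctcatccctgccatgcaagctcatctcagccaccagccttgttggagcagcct

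CHD7 was found in both libraries at 5 of the 8 genes (Phox2a, Gata2, Gata3, Insm1 and Elavl4), and H3K27ac at 2, Phox2a and Elavl4. Over all protein-coding genes, CHD7 was assigned in this way to 55.6% and H3K27ac to 56.6%. Counted at gene ends alone, CHD7 lay at 3 of the 8 genes, against 44.2% of all genes, and H3K27ac at 2, against 47.6%. Both marks lay at ends of 2 genes, against 39.3% of all, and CHD7 alone at 1, Insm1, against 4.83%. Within the 8, the 4 transcription factor genes and Elavl4 held all the recurring CHD7 regions. The receptor gene Ret and the enzyme genes Th and Dbh had no recurring region of either mark. No such split by role was seen among 50 other autonomic genes. There, CHD7 was assigned to 6 of 14 transcription factor genes, 5 of 11 ligands and receptors and 9 of 15 transmitter genes. A gene with neither mark is common, at 36.9% of all genes. CHD7 without H3K27ac, as at Gata2, Gata3 and Insm1, was assigned to 3 of the 8 genes and to 6.49% of all genes. With peaks of a −log10 q of at least 10, Elavl4 alone kept CHD7 and H3K27ac at an end, against 10.6% and 28.3% of all genes. No test was run on these counts, and 2 against 2 libraries could not give a two-sided exact permutation p below 0.333.

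By library, the 8 genes held 10 and 7 CHD7 peaks at 6 and 5 genes, and 3 and 4 H3K27ac peaks at 2 and 3 genes. At gene ends alone, CHD7 libraries 1 and 2 had peaks at 4 and 3 of them, against 51.1% and 49.1% of all genes. H3K27ac libraries 1 and 2 had end peaks at 2 and 3, against 51.3% and 49.8%. Shares by single library are given for gene ends only. The input libraries held 0 and 0 peaks of the 8 genes, and over all protein-coding genes recurring input regions were assigned to 0.758%. The nearest input peak to any of these genes lay 736.3 kb away, near Gata2 in input library 2. The deposited lists held between 26927 and 31873 CHD7 peaks, between 22686 and 24283 H3K27ac peaks and between 451 and 512 input peaks on the placed chromosomes. They give no read counts, so the depth of the libraries is unknown.

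**Figure D1:**
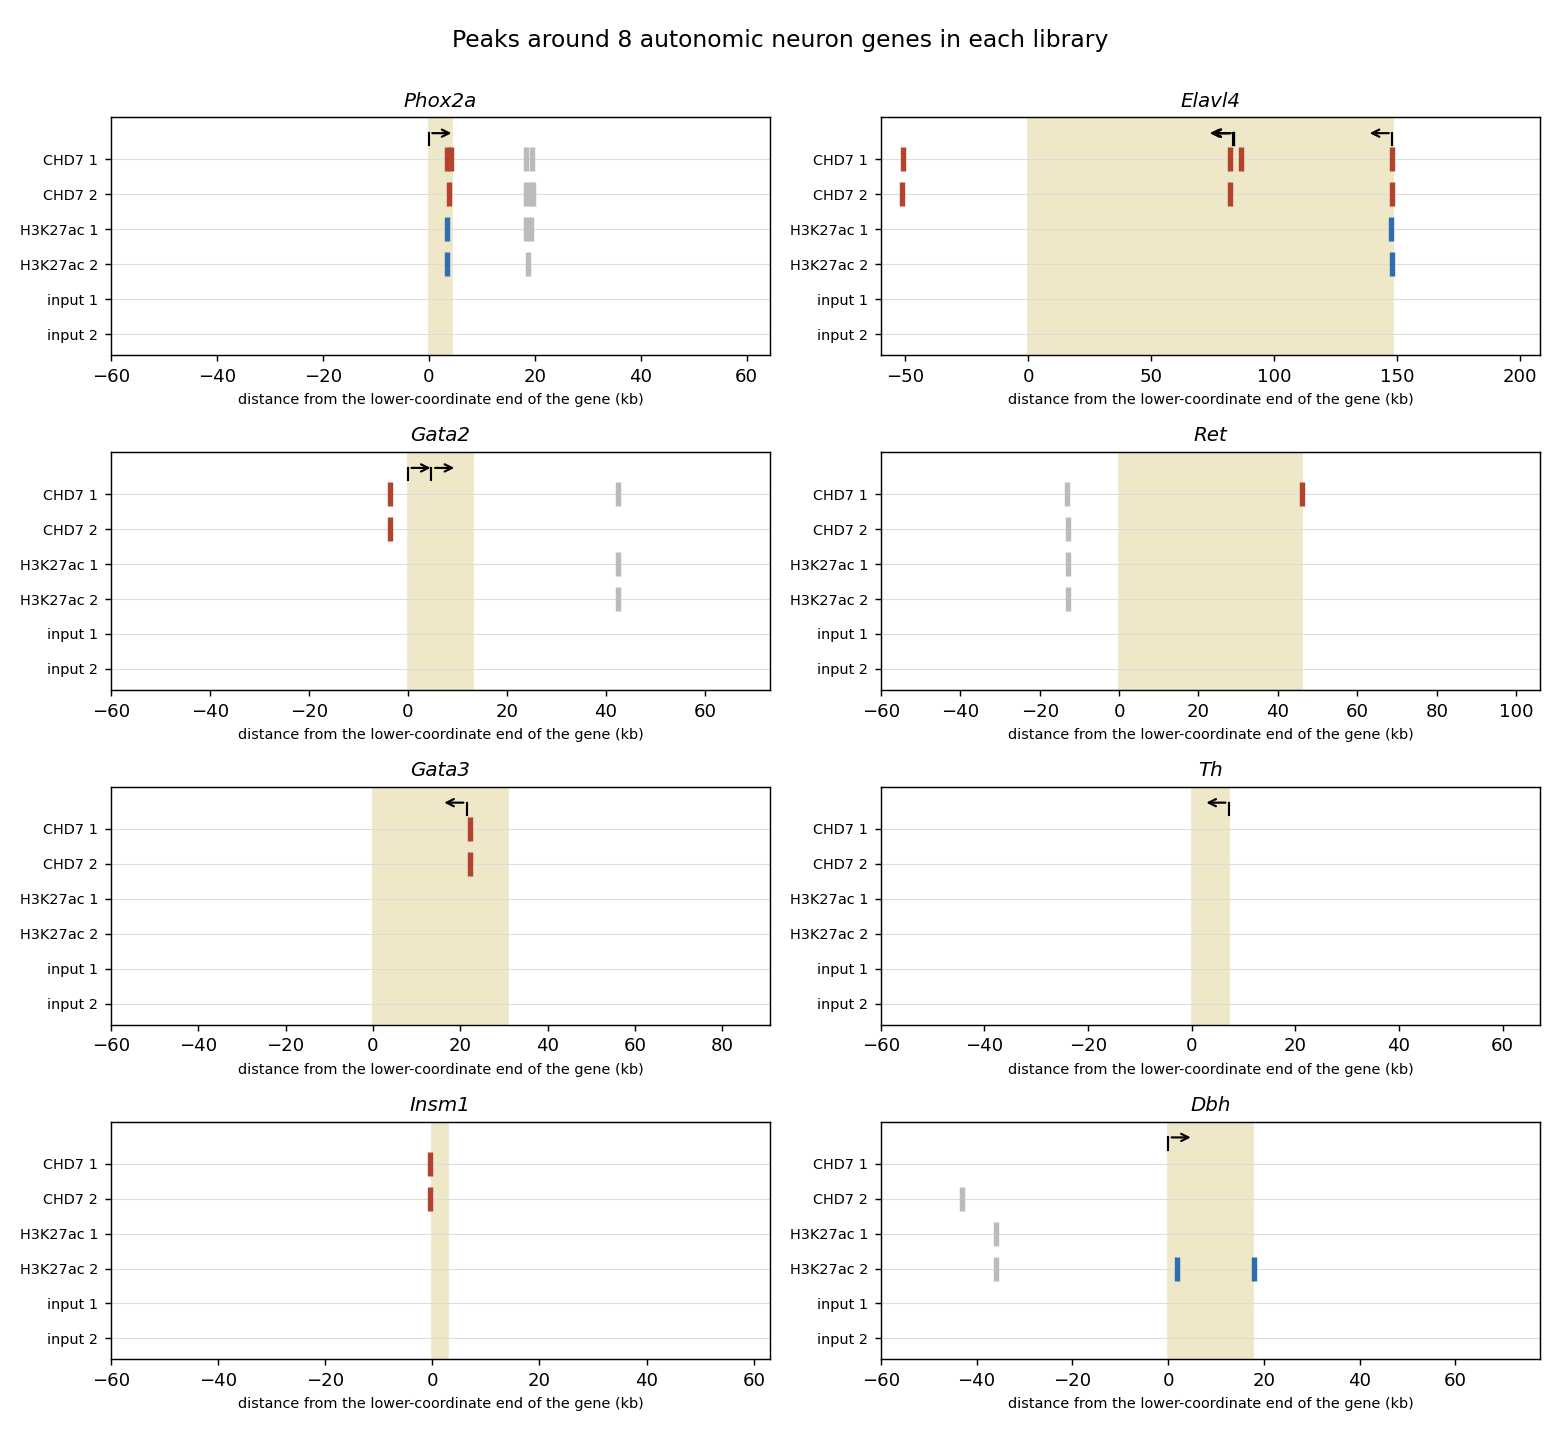
Peaks of each library around the 8 genes, by distance in kb from the lower-coordinate end of the gene. Shaded spans are the genes, arrows are RefSeq start sites where the table holds them, coloured ticks are peaks assigned to the gene (CHD7 red, H3K27ac blue) and grey ticks are peaks assigned to neighbouring genes; tick widths are not to scale. CHD7 stands at the 4 genes on the left and at Elavl4 in both libraries, and no peak lies in the span drawn around Th; peaks of a neighbouring gene, from 75.1 kb in CHD7 library 2, lie beyond it.

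Elavl4, which encodes the neuronal RNA-binding protein HuD, carried the strongest regions of the group. At its upper end on chromosome 4, where the outermost start site lies, CHD7 (110351117 to 110352183) had folds of 4.74 and 5.62 in libraries 1 and 2, a mean of 5.18 ± 0.62 (SD, n = 2). Fold is the enrichment at the summit as the authors' peak caller gave it, and its scale differs between antibodies. H3K27ac (110351070 to 110352215) had folds of 6.83 and 7.61 there, a mean of 7.22 ± 0.55 (SD, n = 2). The H3K27ac region held the CHD7 region whole, with an overlap of 1067 bp.

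The summits of the marks at Elavl4 lay close together. They stood 397 and 382 bp downstream of the start site at 110351911 for CHD7, and 441 and 404 bp downstream for H3K27ac. All libraries thus placed the summit inside the transcribed part. The CHD7 region ranked at percentile 93.8 of the 10197 CHD7 regions at gene ends, and the H3K27ac region at percentile 95.8 of 11214.

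The long Elavl4 gene, 148.2 kb, also held weaker CHD7 regions without H3K27ac. A region in its body (110285280 to 110286042) had folds of 2.78 and 2.53. It began 792 bp downstream of the innermost of 3 internal start sites, at 110286834. Another (110152244 to 110153112) lay 50.6 kb beyond the end of the gene, over the non-coding gene Gm33070, with folds of 3.62 and 3.81. The region at the outermost start was the only Elavl4 region with H3K27ac in both libraries, and its CHD7 fold exceeded that of the other regions in each library. In CHD7 library 1 alone, a further peak of fold 2.74 lay in the body (110290022 to 110290307), and in H3K27ac library 1 alone a peak of 2.87 lay 74.9 kb beyond the lower end (110128313 to 110128871).

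Phox2a, a homeodomain factor that activates Dbh, had both marks, but at its 3′ end and not at its start. CHD7 covered 101821379 to 101822853 on chromosome 7, with highest folds of 2.99 and 3.64 and a mean of 3.32 ± 0.46 (SD, n = 2). These folds came from different summits in the region, so their SD is not the spread at a single site. H3K27ac covered 101821464 to 101822240 inside the CHD7 region, with folds of 4.66 and 4.39 and a mean of 4.53 ± 0.19 (SD, n = 2). These regions began 3066 and 3151 bp downstream of the start site at 101818313, the only Phox2a start in the table.

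The Phox2a 3′ end runs into that of the neighbouring gene Inppl1, which lies on the other strand and overlaps it. Both regions lay within 1 kb of the end of each gene, so the lists do not say to which of these genes they belong. In CHD7 library 1 the stretch was called as separate peaks, with folds of 2.56 at a summit 3654 bp from the Phox2a start and 2.99 at 4339 bp. The peak of 2.99 began at 101822340, beyond the H3K27ac region. Library 2 called the stretch as a single interval whose strongest summit stood at 3642 bp. The H3K27ac summits stood at 3508 and 3646 bp. CHD7 ranked at percentile 36.1 and H3K27ac at percentile 51.8 of regions at gene ends, far below Elavl4 for both marks.

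**Figure D2:**
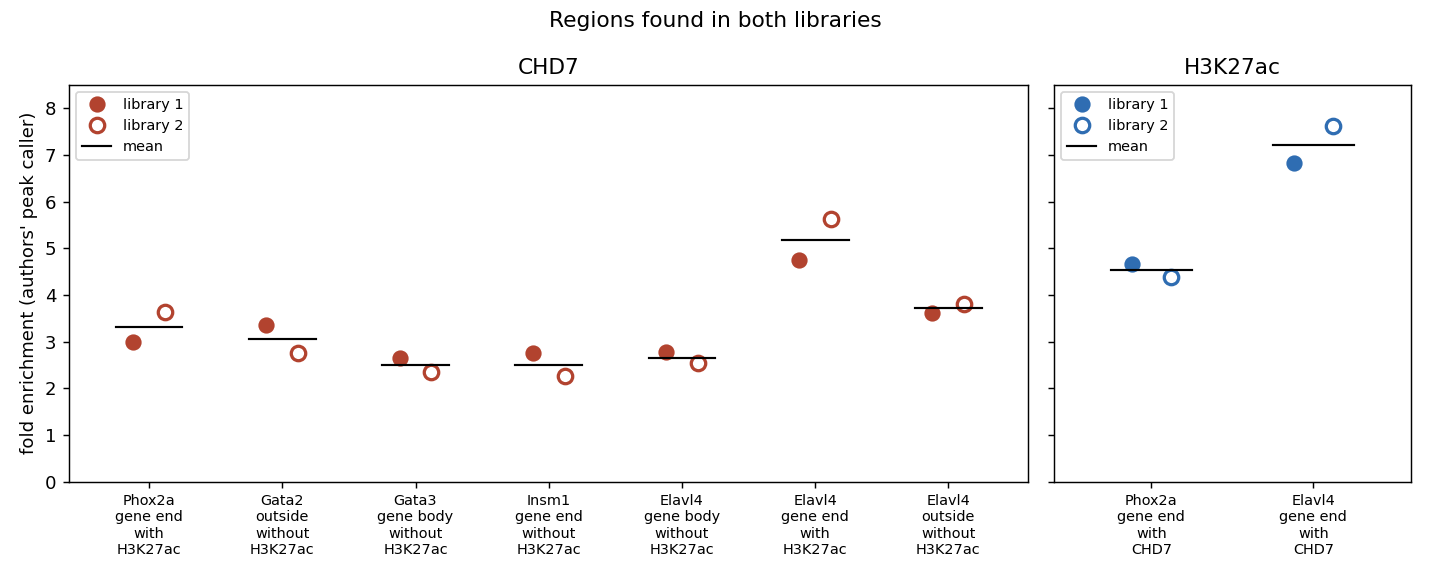
Fold enrichment of the 7 CHD7 and 2 H3K27ac regions found in both libraries, filled points library 1, open points library 2, bars their mean; outside means beyond the gene ends. Folds of different antibodies are not on a common scale. The upper-end Elavl4 region stands highest for both antibodies, at mean folds of 5.18 and 7.22.

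Gata2 and Gata3 encode zinc finger factors, and Gata3 is needed in the mouse for sympathetic neurons to make Th and Dbh. At Gata2, CHD7 lay upstream of both annotated starts (chromosome 6, 88189700 to 88190928), with folds of 3.35 and 2.75 and a mean of 3.05 ± 0.42 (SD, n = 2). The strongest summits stood 3673 and 3459 bp before the outer start at 88193891. The region also lies in the body of the non-coding gene Gm38708, and counts for Gata2 only when protein-coding genes are considered. No peak of either mark lay within 1 kb of either Gata2 start, and the nearest recurring H3K27ac region, 29.0 kb beyond the gene, lay nearest to Dnajb8, with folds of 3.43 and 3.11.

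At Gata3, CHD7 lay close to the start (chromosome 2, 9878959 to 9879486), with folds of 2.65 and 2.34 and a mean of 2.495 ± 0.22 (SD, n = 2). It began 359 bp upstream of the start site at 9878600, and its summits stood 525 and 687 bp before it. The gene span of the table runs on past this start, so the region counts as body. No H3K27ac peak of either library was assigned to Gata3, and the nearest recurring one lay 68.5 kb away in Taf3, with folds of 2.65 and 2.95.

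Insm1, a zinc finger factor required in the mouse for sympathoadrenal precursors, is a short gene of 3.02 kb. CHD7 (chromosome 2, 146221359 to 146221720) lay 277 bp outside its lower-coordinate end, with folds of 2.75 and 2.26 and a mean of 2.51 ± 0.35 (SD, n = 2). The summits, at 146221586 and 146221575, were 11 bp apart. H3K27ac was absent from both lists there, and the nearest recurring region was 99.5 kb away in Ralgapa2. The Insm1 and Gata3 regions were among the weakest CHD7 regions that recurred, at percentiles 4.42 and 4.22 of all 19947, and the Gata2 region stood at 26.8.

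Of the 7 recurring CHD7 regions, 2 overlapped H3K27ac, against 60.4% of all CHD7 regions. Those at gene ends did so in 2 of 3 cases, against 80.4% of such regions genome-wide. None of the 2 in gene bodies and none of the 2 outside protein-coding genes did, against 46% and 39.6%. Both H3K27ac regions overlapped CHD7, as did 66.8% of all H3K27ac regions and 72% of those at gene ends. Near the 1 kb limit, the Insm1 CHD7 region and the Phox2a H3K27ac region lay inside it, at 277 and 486 bp, and a Dbh peak of H3K27ac library 2 and the Gata2 region lay outside it, at 1290 and 2963 bp.

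**Figure D3:**
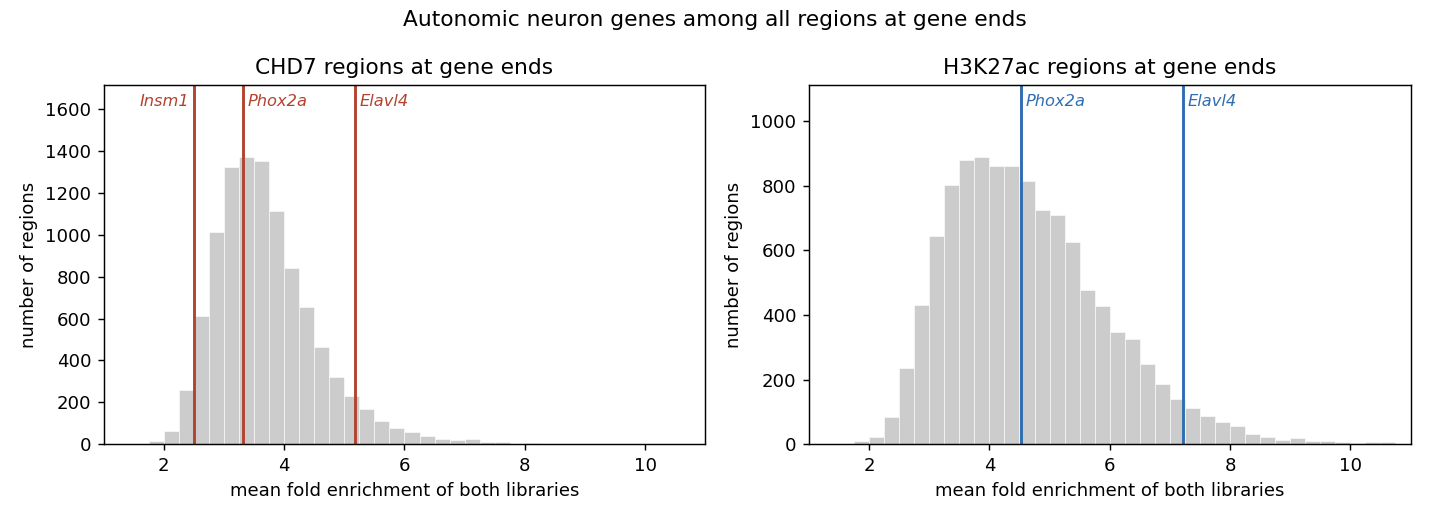
Number of CHD7 (left) and H3K27ac (right) regions at gene ends by mean fold enrichment of both libraries, with vertical lines at the regions of Insm1, Phox2a and Elavl4. Elavl4 lies in the upper tail of both distributions, at percentiles 93.8 and 95.8, and Insm1 in the lower tail for CHD7, at percentile 3.42.

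Ret, Th and Dbh had no region that recurred. At Ret, CHD7 library 1 had a peak of fold 2.88 and a −log10 q of 2.90 over the upper end (chromosome 6, 118197552 to 118197880), and library 2 had none. No H3K27ac peak was assigned to Ret in either library. The nearest recurring regions lay 12.6 kb below the gene at the end of Csgalnact2, with CHD7 folds of 3.00 and 3.67 and H3K27ac folds of 6.03 and 5.48.

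Dbh was the reverse case, with H3K27ac in library 2 alone. A peak of fold 3.14 (chromosome 2, 27166797 to 27167824) had its summit 2096 bp downstream of the start, and a peak of 2.38 (27183148 to 27183591) covered the other end. H3K27ac library 1 and both CHD7 libraries had no peak assigned to Dbh. The nearest recurring H3K27ac region lay 35.7 kb away in Fam163b, with folds of 3.13 and 3.01, and the nearest recurring CHD7 region 85.6 kb away in Adamtsl2, with folds of 4.34 and 4.24.

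Th had no peak in any library. The nearest recurring CHD7 region lay 67.8 kb from the gene at Ascl2, a gene of the placenta, with folds of 3.64 and 3.13, and the nearest recurring H3K27ac region 152.4 kb away at Cd81. The stretch nearer to Th than to any other protein-coding gene, within 100 kb of it, measured 140.6 kb, and that of Ret 145.1 kb. Of 3797 genes with such a stretch of 100 to 200 kb, 30.4% had neither mark. Of 9429 genes with 10 to 50 kb, like Dbh with 31.8 kb, 42.8% had neither.

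The start windows differed in CG content and in what lay on them. The CpG ratio, observed over expected CG dinucleotides, was 0.94 at the outer Elavl4 start, 0.90 and 0.76 at the Gata2 starts, 0.80 at Phox2a and 0.66 at Gata3. It was lower at Th, 0.48, at the inner Elavl4 starts, between 0.27 and 0.38, and at Dbh, 0.092. Genome-wide, windows with a ratio of at least 0.6 had CHD7 within 1 kb of the start in 74.4% of 10137 cases and H3K27ac in 81.1%, and those with a lower ratio in 16.5% and 18.7% of 11126. Of the 5 CpG-rich windows of the 8 genes, CHD7 lay at 2, Elavl4 and Gata3, and H3K27ac at 1, Elavl4. The Phox2a start and both Gata2 starts, with CpG ratios in the range of occupied promoters, had neither. Windows with neither mark reached 0.82 at percentile 95, so the Phox2a and inner Gata2 starts were in their range too. Counted over start sites, CHD7 lay at 2 and H3K27ac at 1 of the 6 genes in the table, against 45.4% and 49.7% of 17492 genes.

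**Figure D4:**
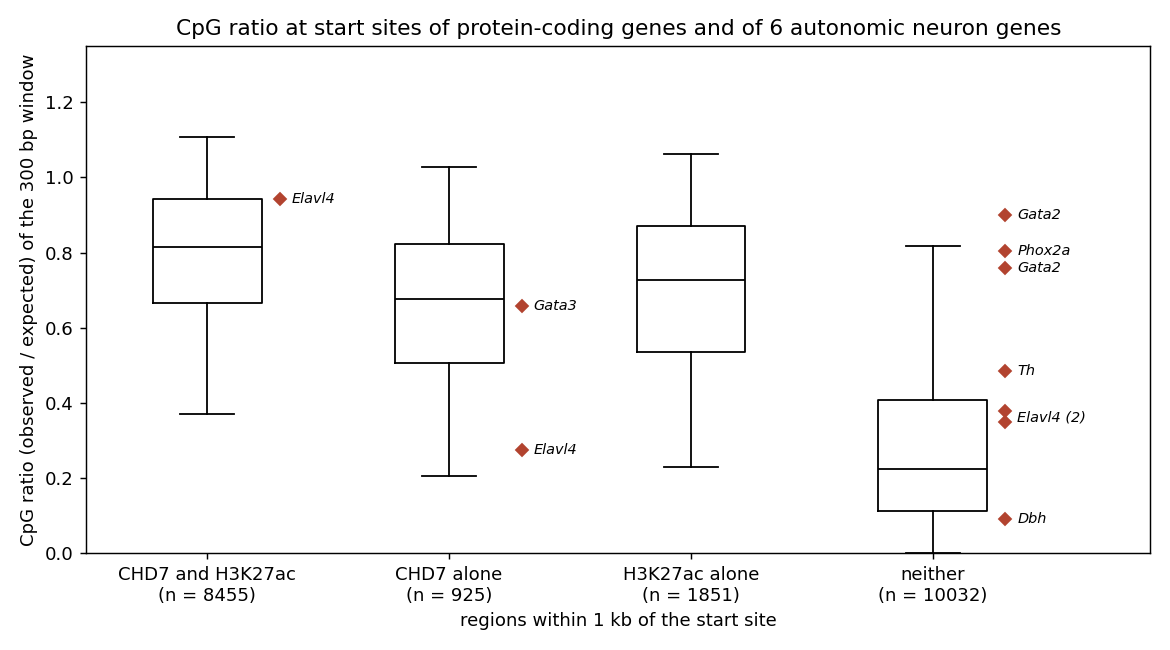
CpG ratio of the 300 bp windows at start sites of protein-coding genes, by the marks within 1 kb of the start. Boxes give the median and quartiles and whiskers percentiles 5 and 95, with n the number of windows; diamonds are the windows of the autonomic neuron genes. The Gata2 and Phox2a windows, at 0.76 to 0.90, stand above the upper quartile of windows with neither mark. Of these, the outer Gata2 window alone stands above percentile 95 of that class, 0.82.

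Short motifs were searched in these windows on both strands. The cyclic AMP response element TGACGTCA stood in the Th window, with its first base 45 bases before the start, and in 2.23% of all 21263 windows. The homeodomain core ATTA occurred 3 times in the Dbh window, at 157, 147 and 65 bases before the start, counted to its first base on the printed strand, and 2 times in the Th window, and was in 51.8% of all windows. It was absent from the windows of Phox2a, Gata3, Gata2 and the outer Elavl4 start. With the inner Elavl4 starts left aside, the GATA core GATAA was in the Phox2a window, as in 22.5% of all, and the E-box CANNTG in those of Phox2a, Gata3, Th, Dbh and the inner Gata2 start, as in 69% of all. The CCAAT box stood in the windows of Phox2a, Dbh and the inner Gata2 start (38.2% of all) and the GC box GGGCGG in those of Phox2a, Gata3, Th and both Gata2 starts (46.2%). The TATA box TATAAA was in none of the windows of the 8 genes and in 12.6% of all. Motifs may overlap, and a match is not a bound site.

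The wider autonomic programme was read from 50 other genes, a list drawn up with results of these data known. CHD7 lay at an end of 13 (26%) and H3K27ac at an end of 15 (30%), against 44.2% and 47.6% of all protein-coding genes. The CHD7 count rests on the demand for both libraries: library 1 alone had CHD7 at 20 of the 50 genes and library 2 alone at 26, against 51.1% and 49.1% of all genes. H3K27ac libraries 1 and 2 alone had 21 and 18, against 51.3% and 49.8%. With regions of both libraries, both marks lay at 7 genes, CHD7 alone at 6, H3K27ac alone at 8 and neither at 29. Of all 21776 protein-coding genes, 8567 (39.3%) had both marks at an end and 1051 (4.83%) had CHD7 alone. H3K27ac alone lay at 1805 of them and neither mark at 10353. The median fold at these ends was 3.18 for CHD7, against 3.73 over all genes with CHD7 there, and 3.13 for H3K27ac, against 4.80. Among 24 of these genes with a CpG-rich start window, 7 had CHD7 and 9 had H3K27ac within 1 kb of such a start, against 74.5% and 81.0% of 8896 genes.

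Of the transcription factor genes among the 50, 2 of 14 had CHD7 and 4 had H3K27ac at an end, against 44.2% and 47.6% of all genes. Hand2, a basic helix-loop-helix factor, had no region of either mark. Isl1, a LIM homeodomain factor, had an H3K27ac region 96.6 kb away with folds of 3.75 and 5.66, and no CHD7.

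Among ligands and receptors, 2 of 11 genes had CHD7 and 4 had H3K27ac at an end, against the same 44.2% and 47.6%. Alk, a receptor tyrosine kinase of sympathetic precursors, had CHD7 (3.17 and 3.15) and H3K27ac (5.13 and 4.48) at its lower-coordinate end. A gene end in these counts can be the start or the 3′ end. Ednrb, the endothelin receptor of enteric precursors, also had both, with CHD7 folds of 3.31 and 4.06 and H3K27ac folds of 3.69 and 3.30. Nrtn, neurturin, a Ret ligand, had H3K27ac alone (3.98 and 3.13). Gfra1, the co-receptor that presents GDNF to Ret, had neither mark at its ends.

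Transmitter genes had CHD7 at an end in 5 of 15 cases and H3K27ac in 4, with both at 1 gene, where all genes had 44.2% and 47.6%. Gch1, which makes the cofactor of tyrosine hydroxylase (CHD7 folds 3.50 and 3.48), Slc6a2, the noradrenaline transporter (3.30 and 4.25), and Chgb, chromogranin B (3.15 and 3.65), had CHD7 without H3K27ac. Slc18a2, the vesicular monoamine transporter (H3K27ac folds 3.13 and 3.10), and Slc5a7, the choline transporter (3.58 and 4.04), had H3K27ac without CHD7. Slc18a1, a related vesicular transporter, had both, with CHD7 folds of 4.18 and 2.84 and H3K27ac folds of 6.11 and 7.09. Ddc, the decarboxylase between Th and Dbh in the pathway, had neither at its ends, and Chga, chromogranin A, had no region at all. Pan-neuronal genes had CHD7 at 4 of 10 and H3K27ac at 3, beside the same shares over all genes. Rtn1, a reticulon, had both (CHD7 3.02 and 4.13, H3K27ac 3.10 and 3.39).

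**Figure D5:**
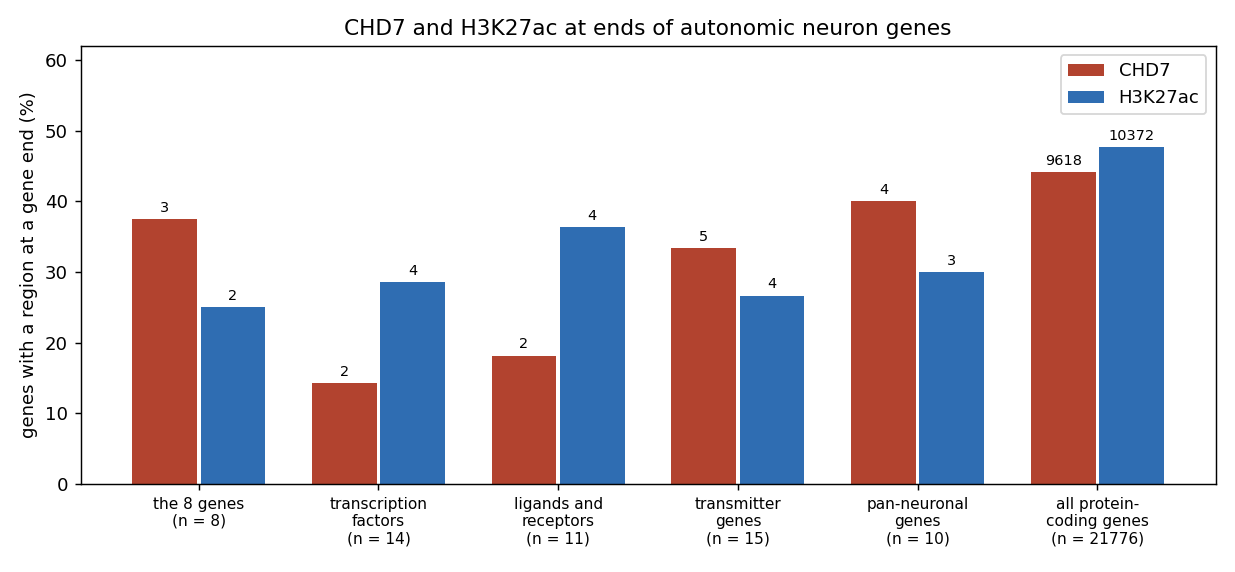
Share of genes with a CHD7 (red) or H3K27ac (blue) region of both libraries at a gene end, in percent, for the 8 genes, the roles among the 50 other autonomic genes and all protein-coding genes; numerals on the bars count genes. Each role holds 10 to 15 genes, and the lowest share is that of CHD7 at transcription factors, 2 of 14. The roles were not tested against each other or against all genes.

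Markers of the sorted cells and of other cell types that a sort could hold were read in the same way, beside the 44.2% (CHD7) and 47.6% (H3K27ac) of all genes with a region at an end. CHD7 lay at an end of 3 of 10 crest and mesenchyme markers (Sox9, Snai2 and Ets1) and H3K27ac at 2 (Sox9 and Twist1), while Sox10, Foxd3, Tfap2a, Tfap2b, Prrx1 and Pdgfra had neither there. With regions in bodies and nearby, 7 had CHD7 and 5 had H3K27ac, against 55.6% and 56.6% of all genes. Placodal and sensory neuron markers had CHD7 at ends in 5 of 8 and H3K27ac in 3 of 8 cases, and glial markers in 3 of 5 each. Hindbrain and spinal neuron markers had 1 and 0 of 6, blood markers 2 and 2 of 6, endothelial markers 1 and 0 of 6, epithelial markers 1 and 1 of 6 and cardiomyocyte markers 0 and 0 of 5, CHD7 given before H3K27ac. With 10 genes or fewer in each list, these counts do not show whether any share, high or low, differs from that of all genes. The part of these cell types in the regions of the 8 genes was not tested.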

How the data were processed

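Sorted GFP+ cells of pharyngeal arches 3 to 6 gave 6 libraries, 2 each of CHD7, H3K27ac and input. Per the submitters' processing notes, the tools were MACS2 2.1.2, Picard, Bowtie2 2.3.3.1 and bcl2fastq 2.18.0.12 with build mm10. No role or order is named, and the control of the peak calls is unknown. The deposited lists, called per library, give each peak's fold enrichment, a ratio by the authors' peak caller, with p-value and q-value as −log10, and an integer score made from the q-value. Summits of the same interval were joined, keeping the highest fold and q-value, and chromosomes 1 to 19, X and Y were used. Peaks of the 2 libraries of a group that overlapped by at least 1 bp were merged into regions, and those with a peak in each were kept. The fold of a region in a library is the highest of its peaks there. Genes came from RefSeq tables of build GRCm38.p6, with 124 of 21900 protein-coding genes left out as unplaced. Regions were assigned to gene ends (1 kb), bodies or, outside all protein-coding genes, the nearest such gene within 100 kb. The assignment was tested on simulated peaks. The members and lists were chosen with earlier results of these data known. All 8 genes were named; of the 50 others, the 6 with the highest mean fold at an end for each mark and a set of 8 chosen for their roles, of which 2 are not reported here. No test was run, because 2 libraries a group hold no counts, and folds were not compared between antibodies. Peaks on unplaced sequence were not used. Python 3.11.15, numpy 2.4.6 and pandas 2.3.3 were used.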

Additional observations from a re-analysis of the deposited data

How the results depend on the processing

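Of 116 recomputed counts, 89 stayed within 1.5 times the reported count. Most of the others moved under strict limits. Where peaks needed a −log10 q of 10 or more, and likewise with the 10000 peaks of lowest q, 1 of the 8 genes, Elavl4, kept CHD7 (5 with all peaks, 3 at ends) and H3K27ac (2 in each case), with 1 CHD7 and 1 H3K27ac region that overlapped. Of the other 50 genes, these limits left 0 and 1 with CHD7 and 1 and 4 with H3K27ac at an end. Under the q limit, 10.6% of all genes kept CHD7 and 28.3% H3K27ac at an end. With peaks of either library, the 8 genes had 5 H3K27ac regions, and 29 and 23 of the 50 genes had CHD7 and H3K27ac at an end. For that setting and the 10000 peaks, shares over all genes are not given, so these counts cannot be placed. Leaving out each library in turn gave between 3 and 4 H3K27ac regions at the 8 genes, against 2. Between 20 and 26 of the 50 genes then had CHD7 at an end, against 13, while single libraries had it at 51.1% and 49.1% of all genes. Without CHD7 replicate 2, Ret joined the genes with CHD7, and without H3K27ac replicate 1, Dbh joined those with H3K27ac. Peaks of a single library need no partner in the other by construction, and the cause of these changes was not tested. Within 1 kb of a start site, an alternative chosen after seeing the data, H3K27ac lay at 1 gene in place of 2. When all annotated genes competed for the nearest gene, 4 of the 8 genes kept CHD7, without Gata2. The CHD7 regions of the 8 genes then fell from 7 to 5, without those over the non-coding genes Gm38708 and Gm33070. No paired analysis was possible because the results come from no test. The depth of the libraries is unknown, so an absent peak is not an absent mark.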

Other observations

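Gfra1, which encodes the co-receptor of Ret, held a CHD7 region in its body with higher folds than any CHD7 region of the 8 genes. It lay 88.1 kb from the nearest gene end on chromosome 19 (58323708 to 58324555), had folds of 8.32 and 7.40, ranked at percentile 99.3 of all CHD7 regions and overlapped no H3K27ac region. The 3 other CHD7 regions of Gfra1 had folds between 2.93 and 4.85 and lacked H3K27ac too, and its 2 H3K27ac regions, with folds between 2.56 and 3.11, lay elsewhere in the body. Ret itself, the receptor of this pair, had a CHD7 peak in library 1 alone. These Gfra1 values were picked out after they were seen.

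Ednrb showed a different layout. Beside the region at its end, CHD7 regions 35.5 and 54.1 kb away had folds of 4.87 and 5.20 and of 5.94 and 5.67, at percentiles 93.1 and 97.0 of all CHD7 regions, and both overlapped H3K27ac. Ddc, the enzyme gene between Th and Dbh in the pathway, had 2 CHD7 and 5 H3K27ac regions in its body. At 7.7 kb from its nearest end both marks overlapped, with CHD7 folds of 3.73 and 4.17 and H3K27ac folds of 4.42 and 3.85. The other 4 H3K27ac regions of Ddc had folds between 1.92 and 3.10.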
